A study of Mus musculus with 8 samples.

Results

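The 41 genes described here encode subunits of the mitochondrial electron transport chain: 22 of complex I, 4 of complex II, 6 of complex III, 8 of complex IV, and cytochrome c. They were followed through the accessibility of their chromatin in regulatory T (Treg) cells with and without Flcn. Accessible regions (peaks) were each assigned by distance to a gene's span in the RefSeq mouse annotation (mm10), to the closest protein-coding gene up to 50 kb away, and equal distances went to the nearest gene end. By that rule 69 of 57199 peaks belonged to 35 of the 41 genes. No ATP synthase gene is among the 41, so the ATP synthase subunits are given beside them as a separate list.

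The assay was ATAC-seq, where a transposase cuts and tags open DNA. In the Flcn KO group the Treg cells came from mixed bone marrow chimeras made with Foxp3Cre Flcn fl/fl marrow, in which Cre recombinase under the control of Foxp3 deletes Flcn in Treg cells. In the WT group they came from chimeras made with WT marrow. All cells were sorted from spleen as CD45.2+ CD45.1- CD4+ cells positive for a Foxp3-YFP reporter, so cells with the CD45.1 allele were gated out. There were 4 libraries per group, labelled as biological replicates. The labels give neither the age of the mice nor whether the WT donors carried Cre.

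Flcn encodes folliculin, a regulator of nutrient signalling at the lysosome that controls the entry of the transcription factors TFEB and TFE3 into the nucleus. The electron transport chain passes electrons from NADH, at complex I, and from succinate, at complex II, through complex III and cytochrome c to oxygen at complex IV, and pumps protons that drive ATP synthase. Treg cells are known to depend on this respiration, and loss of complex III in Treg cells impairs their suppressive function in mice. All these subunits are encoded in the nucleus and imported, and promoters of such genes are known for sites of NRF1, ETS factors, SP1 and YY1.

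The promoters of 6 genes are shown because the results turn on them. The first 5 had the narrowest interval around no change in their complex among promoters that the sequence table holds and that share no start with a neighbour. Ndufs6 holds matches to both NRF1 and YY1 letters and has a distal peak described later. Each line gives the 250 bases before the gene's start, 5′ to 3′ on the gene's strand, from RefSeq on GRCm38.p6, with coordinates on that build. Capitals mark matches, on either strand, to the letters GCGCANGCG for NRF1, CCGGAAG for ETS factors, GGGCGG for SP1, AAGATGGC for YY1, CCAAT for the box of that name, and CACGTG for the E-box.
Ndufv2 (chr17:66101560-66101809, minus strand): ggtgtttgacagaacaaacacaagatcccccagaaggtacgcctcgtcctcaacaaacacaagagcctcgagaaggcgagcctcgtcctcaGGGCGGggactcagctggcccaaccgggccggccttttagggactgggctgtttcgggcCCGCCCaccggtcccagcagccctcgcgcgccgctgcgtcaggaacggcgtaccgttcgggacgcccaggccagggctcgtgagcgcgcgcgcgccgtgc
Sdhb (chr4:140961021-140961270, plus strand): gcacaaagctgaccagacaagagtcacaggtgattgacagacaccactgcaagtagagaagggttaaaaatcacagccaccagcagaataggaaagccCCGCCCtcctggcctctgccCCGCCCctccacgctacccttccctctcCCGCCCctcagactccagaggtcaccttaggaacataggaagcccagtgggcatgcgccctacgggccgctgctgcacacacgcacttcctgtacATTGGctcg
Uqcrfs1 (chr13:30545317-30545566, minus strand): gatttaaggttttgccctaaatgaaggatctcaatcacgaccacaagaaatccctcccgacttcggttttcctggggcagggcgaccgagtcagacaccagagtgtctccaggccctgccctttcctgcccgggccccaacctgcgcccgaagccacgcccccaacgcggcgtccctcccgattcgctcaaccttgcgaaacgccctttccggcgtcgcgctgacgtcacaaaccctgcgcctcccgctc
Cox7a2 (chr9:79759854-79760103, minus strand): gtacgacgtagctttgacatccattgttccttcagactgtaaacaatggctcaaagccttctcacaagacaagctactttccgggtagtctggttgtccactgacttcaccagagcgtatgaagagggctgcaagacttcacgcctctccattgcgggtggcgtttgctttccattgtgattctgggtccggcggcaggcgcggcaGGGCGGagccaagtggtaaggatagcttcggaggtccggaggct
Cycs (chr6:50566570-50566819, minus strand): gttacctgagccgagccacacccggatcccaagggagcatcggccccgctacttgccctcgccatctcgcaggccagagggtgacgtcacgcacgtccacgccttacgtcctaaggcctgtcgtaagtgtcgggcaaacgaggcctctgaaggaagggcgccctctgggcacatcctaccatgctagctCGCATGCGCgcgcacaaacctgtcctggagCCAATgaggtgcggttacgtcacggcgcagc
Ndufs6 (chr13:73328483-73328732, minus strand): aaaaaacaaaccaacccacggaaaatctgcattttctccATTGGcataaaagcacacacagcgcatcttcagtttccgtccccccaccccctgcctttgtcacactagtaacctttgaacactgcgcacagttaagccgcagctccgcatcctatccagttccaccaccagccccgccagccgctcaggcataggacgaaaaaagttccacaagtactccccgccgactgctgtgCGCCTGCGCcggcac
Ndufv2, Sdhb and Cox7a2 hold SP1 letters upstream of the start, Sdhb and Cycs hold a CCAAT box near it, and Uqcrfs1 holds none of the letters searched. NRF1 letters occur in Cycs, beginning 61 bases before the start, and in Ndufs6, beginning 15 bases before it. The YY1 match of Ndufs6 begins at base 34 after the start, in the 50 bases that were searched but are not printed. The same unprinted stretch holds ETS letters in Sdhb, at base 7, and SP1 letters in Cycs, at base 32.

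Over the 300-base windows around the start, 31 of the 41 genes had a sequence in the table. YY1 letters stood in 6 of 31 genes (19.4%: Ndufs4, Ndufs6, Ndufs7, Ndufa9, Ndufb8 and Ndufc1), against 3.57% of 17492 protein-coding genes and 5.21% of the 8184 whose promoter had a tested peak. NRF1 letters stood in 9 of 31 (29.0%: Ndufs6, Ndufa5, Ndufa8, Ndufb10, Sdha, Sdhd, Uqcrc1, Cox6a1 and Cycs), against 9.63% of all genes and 15.8% of those with a tested promoter peak. ETS letters were in 19.4% of the 31, against 12.9% and 20.8% of the same 2 sets. SP1 letters were in 41.9%, against 49.2% and 71.0%. CCAAT letters were in 32.3%, against 42.3% and 43.8%. The E-box, to which TFEB and TFE3 bind, was present in Ndufv1 alone (3.23%), against 8.91% and 12.1%. A longer form that contains it, TCACGTGA, was in 0 of 31, against 1.41% and 2.3%. The NRF1 letters and this longer form were shortened by 1 or more bases after a first search. Their shares thus come from letters set after that search. All these are matches of letters, not binding sites. The shares are per gene, and a gene could have more than 1 window. The 31 genes had 32 windows, against 21263 for the 17492 genes and 10543 for the 8184. Genes of the comparison sets thus had more sequence in which to match.

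The 8 libraries held 2723344 to 5111728 counts over all peaks, with 2723344 to 5111728 in Flcn KO and 3986331 to 4914976 in WT. The share of counts in promoter peaks was 50.5% ± 1.63 in Flcn KO and 51.3% ± 1.55 in WT (SD, n = 4 each; exact two-sided permutation p = 0.429, where 0.029 is the smallest that 4 against 4 allows). Even counts made up 88.7% to 92.5% of the peaks, as when both ends of a fragment are counted, and the counts may then overstate the number of fragments. The Flcn gene had 2 tested peaks near its start, at log2 fold changes of -0.28 and -0.57, and neither passed the test (edgeR adjusted p = 0.678 and 0.462). The labels do not say which exons are deleted, so no peak here serves as a check of genotype. At 2 low peaks inside the gene, below the count filter, counts were 16, 4, 8 and 16 in Flcn KO against 0, 2, 0 and 0 in WT, and 2, 9, 18 and 21 in Flcn KO against 0, 0, 2 and 0 in WT. Peaks of the 7 Treg markers (Foxp3, Il2ra, Ctla4, Ikzf2, Cd4, Cd3e and Tnfrsf18) summed to 1274 to 1479 CPM (counts scaled to the library total after TMM correction, which adjusts the totals for composition) in Flcn KO and 1235 to 1337 CPM in WT, and 4 of their 74 tested peaks passed the test (3 higher and 1 lower in Flcn KO), against 2.37% of all 47859 tested peaks. Of other splenic cells, both CD8 T cell markers had peaks, which summed to 21.5 to 46.5 CPM in Flcn KO and 25.7 to 37.2 CPM in WT. Of 4 myeloid markers 2 had peaks, which summed to 8.80 to 12.3 CPM in Flcn KO and 10.1 to 18.4 CPM in WT. Lyz2 and Csf1r had none. All 3 NK cell markers had peaks, 15 in all, which summed to 245 to 323 CPM in Flcn KO and 233 to 266 CPM in WT. Their strongest peaks averaged 88.4 CPM at Klrb1c, 14.3 CPM at Eomes and 3.5 CPM at Ncr1 over all libraries. Of the 12 tested NK marker peaks 2 passed the test (1 higher and 1 lower in Flcn KO), against 2.37% of all tested peaks. The part of such other cells in the results was not tested. In bulk libraries a smaller share of cells with an open site and less opening per cell cannot be told apart.

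The promoters of the respiratory chain were open in both groups, and none passed the test for a difference. Of the 69 peaks, 34 were promoter peaks, within 1000 bp of the start of 31 genes, and 32 of these had enough counts to test, the other 2 being second peaks of Ndufc2 and Cox6c. Of the 32, 0 were called at an adjusted p under 0.05 (edgeR quasi-likelihood test, Benjamini-Hochberg over all 47859 tested peaks), where 0.525% of the 12001 tested promoter peaks of all genes were called. At an unadjusted p under 0.05 there was 1 of 32, Uqcrb, against 7.38% of all promoter peaks. DESeq2 and limma-voom also called 0 of these promoters (over all peaks they called 2.34% and 1.71%). Library values that did not overlap between the groups were found at Uqcrb alone, against 4.97% of all tested promoter peaks. The median log2 fold change (Flcn KO minus WT) was -0.01 for the 32 promoters and -0.04 for all promoter peaks. Promoter peaks of the 31 genes took 0.139% ± 0.00675 of all counts in Flcn KO and 0.140% ± 0.00549 in WT (SD, n = 4 each; exact permutation p = 0.914).

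A p that misses the threshold does not show that a promoter stayed the same, so a promoter was called stable where the 95% interval of its change lay within 1.5-fold in both directions. On that rule 22 of 32 promoter peaks were stable (68.8%), against 58.6% of all tested promoter peaks. With a narrower band, 0.32 either way on the log2 scale, 7 of 32 were stable. The precision of a peak follows its count: at a mean of 20 CPM or more, 20 of 21 were stable (95.2%), against 91.2% of 6660 promoter peaks of all genes at that level. Under 20 CPM, 2 of 11 were stable (18.2%), against 17.8% of 5341. At matched level the shares were therefore near those of promoters in general. Just inside the limit was Ndufc1, whose interval reached 0.57 on the log2 scale. Just outside, against a limit of 0.585, were the second Ndufs4 peak, reaching 0.59, and Ndufa9, reaching -0.59.

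**Figure D1:**
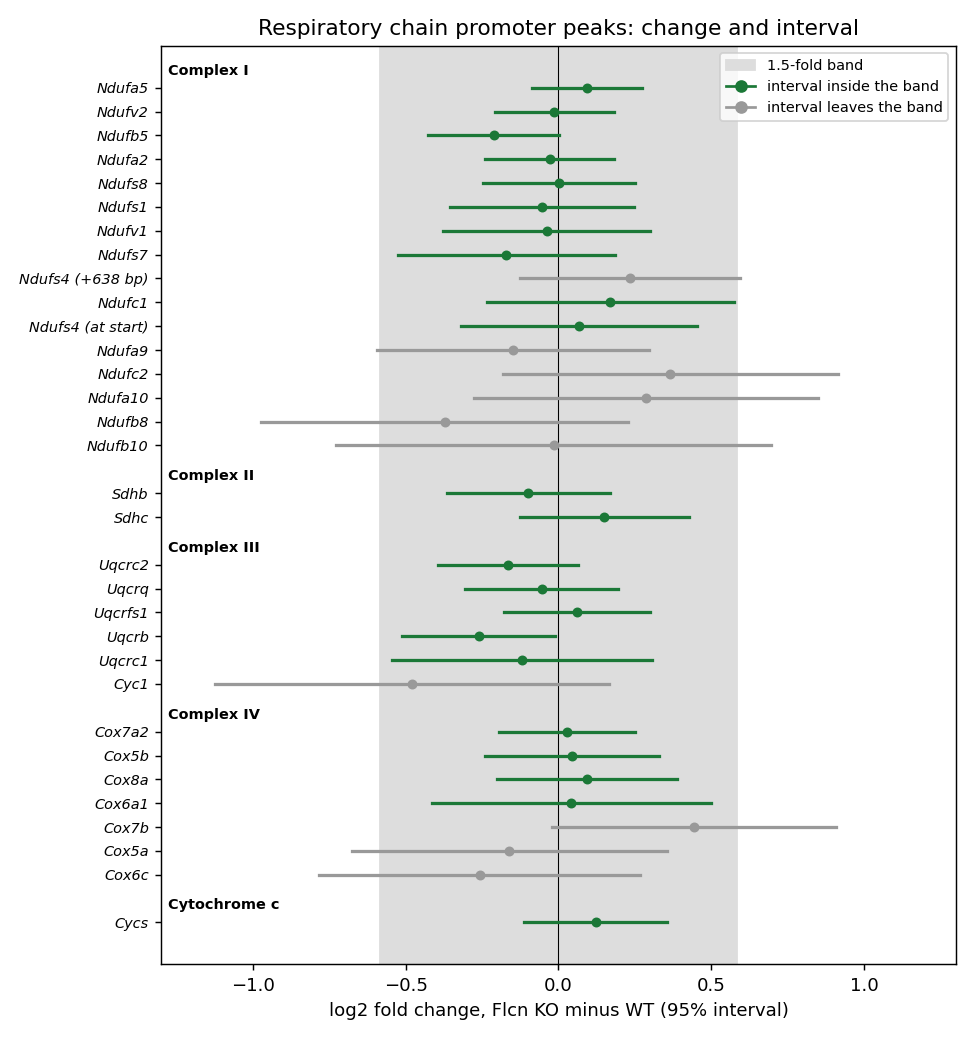
Log2 fold change (Flcn KO minus WT) with its 95% interval for the 32 tested promoter peaks of the respiratory chain, grouped by complex, with the grey band marking 1.5-fold. Green intervals lie inside the band (22 peaks) and grey ones leave it (10 peaks), and all but that of Uqcrb reach or cross 0.

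Of the 41 genes, 6 had no peak of their own by the nearest-gene rule: Ndufs3, Ndufa1, Ndufa4, Ndufa8, Ndufb3 and Ndufb9. Ndufa4, listed here with complex I, has since been placed with cytochrome c oxidase in mammals. Every one of the 41 had a peak at its start, as did 52.8% of 21887 protein-coding genes, and 10 of these start peaks had gone to a neighbour. The 10 are Ndufs3 (given to Kbtbd4), Ndufs6 (Mrpl36), Ndufa1 (Rnf113a1), Ndufa4 (Phf14), Ndufa8 (Morn5), Ndufb3 (Fam126b), Ndufb9 (Tatdn1), Sdha (Ccdc127), Sdhd (Timm8b) and Cox4i1 (Emc8). Their log2 fold changes ran between -0.15 and 0.37, 0 of 10 were called, and 8 of 10 were stable, all but Ndufa1 and Ndufb3. Over all tested promoter peaks 0.525% were called and 58.6% were stable. The 10 peaks had a median of 34.1 CPM, against 24.2 CPM over all tested promoter peaks, and stability rises with level. With these 10, 30 of 42 tested peaks at the start of a respiratory gene were stable (71.4%). A start peak shared with the start of another gene was found for 16 of 41 (39.0%), against 20.2% of the 11563 genes with a start peak, and in these ATAC-seq cannot assign the opening to either gene.

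**Figure D2:**
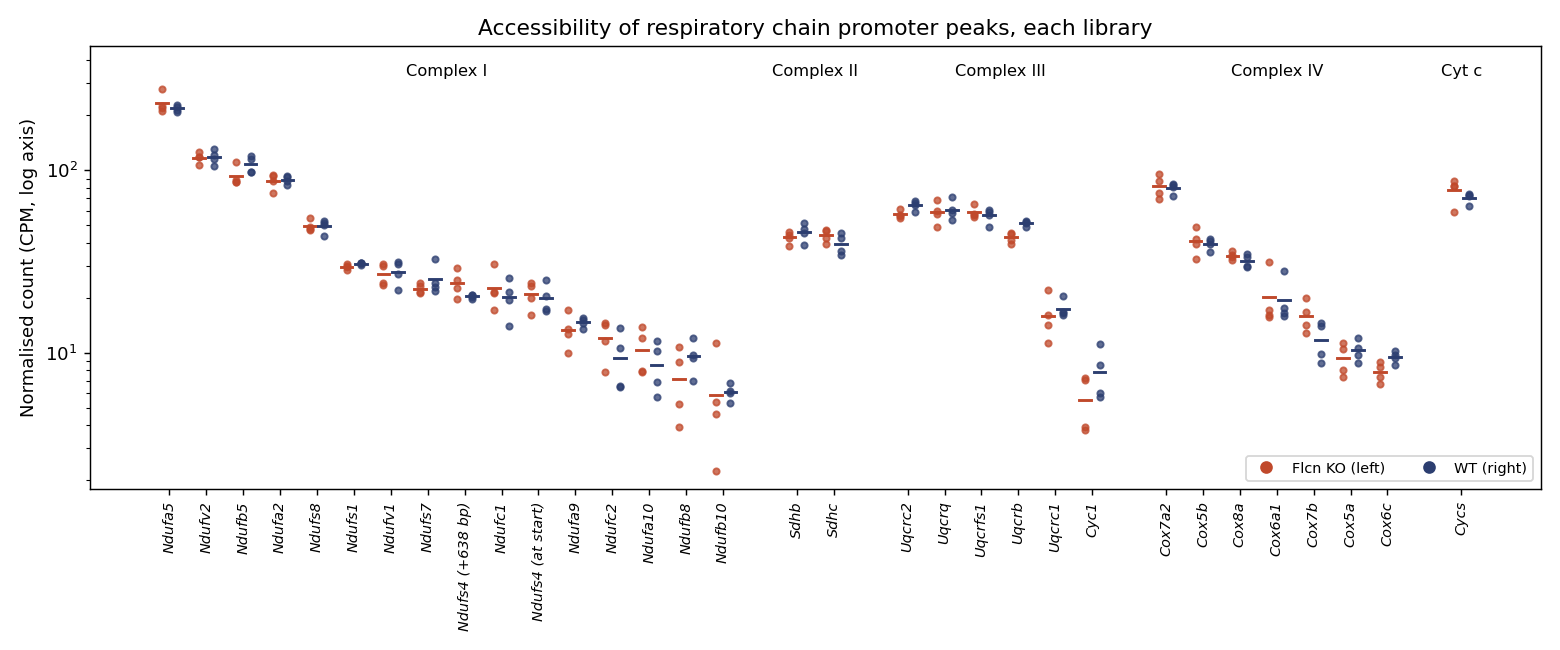
Normalised count (CPM, log axis) of each tested promoter peak in each library, Flcn KO left and WT right of each position, grouped by complex. The points of the groups overlap at each promoter other than Uqcrb, where the 4 Flcn KO libraries lie between 39.6 and 45.0 CPM and the 4 WT libraries between 48.8 and 52.8 CPM.

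Complex I takes electrons from NADH and had 16 tested promoter peaks from 15 of its genes. Of these 0 were called, 10 were stable, and log2 fold changes ran between -0.37 (Ndufb8) and 0.37 (Ndufc2). The highest promoter of the 41 genes per length was that of Ndufa5, a subunit of the arm that faces the matrix, at 392 CPM per kb, above 99.1% of all tested promoter peaks. It reached 210, 218, 225 and 280 CPM in Flcn KO and 209, 213, 229 and 222 CPM in WT. The groups overlapped apart from Flcn KO replicate 4, which was higher, and the log2 fold change was 0.09 (SE 0.09; 95% interval -0.09 to 0.27). Ndufv2, an iron-sulfur subunit of the NADH-oxidising module whose promoter is printed above, had 118, 118, 107 and 126 CPM in Flcn KO and 122, 106, 130 and 116 CPM in WT. Its log2 fold change was -0.01 (SE 0.10; -0.21 to 0.18), and the ranges overlapped.

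The other stable complex I promoters were those of Ndufv1, which binds NADH and FMN, the catalytic core and iron-sulfur subunits Ndufs1, Ndufs7 and Ndufs8, the accessory subunits Ndufa2, Ndufb5 and Ndufc1, and the start peak of Ndufs4, a subunit needed for assembly of the NADH-oxidising module. Ndufs8 averaged 49.4 ± 3.57 CPM in Flcn KO and 49.4 ± 4.07 CPM in WT (SD, n = 4 each), at a log2 fold change of 0.00 (-0.25 to 0.25). Ndufb5 lay farthest from 0 among these, at -0.21 (SE 0.11; edgeR adjusted p = 0.399). Not stable were Ndufa9, Ndufa10, Ndufb8, Ndufb10, Ndufc2 and the second Ndufs4 peak, 638 bp into the gene. Except for the last, these are low peaks, averaging 5.89 to 13.3 CPM in Flcn KO and 6.05 to 14.7 CPM in WT. The lowest, Ndufb10, had 4.61, 11.3, 5.38 and 2.25 CPM in Flcn KO and 6.13, 5.27, 6.02 and 6.78 CPM in WT. Its Flcn KO libraries spread on both sides of WT, and the interval was correspondingly wide (-0.73 to 0.70).

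Outside promoters, complex I genes held 9 tested peaks, none called. Of these 2 had an unadjusted p under 0.05, both with lower means in Flcn KO. Ndufa9 is an accessory subunit at the junction of the matrix and membrane arms. A peak inside it, at chr6:126836643-126836976 and 12168 bp from the start, had 3.08, 1.58, 0.978 and 0.749 CPM in Flcn KO and 4.90, 4.83, 3.01 and 4.36 CPM in WT. The groups overlapped only through Flcn KO replicate 1, and the log2 fold change was -1.32 (SE 0.48; edgeR adjusted p = 0.161). Without that library it was called, at -1.90 with an adjusted p of 0.0407. As the library left out was the only one overlapping WT, that call is no further support. The peak entered the test through WT. There 4 of 4 libraries reached the level of the count filter (2.43 CPM of the uncorrected total), against 1 of 4 in Flcn KO. A second Ndufa9 peak, at chr6:126791545-126791823 and 30040 bp from the gene, fell below the count filter, with counts of 4, 2, 2 and 2 in Flcn KO and 16, 14, 18 and 8 in WT. Every Flcn KO library was lower there than every WT library. The peak was called when the filter was left out (-2.28, adjusted p = 0.0447). It was also called without WT replicate 4 (-2.46, adjusted p = 0.0456), when it passed the filter through the remaining WT libraries. As the library left out was the WT one nearest to Flcn KO, that call is no further support. The Ndufa9 promoter had 10.0, 12.6, 17.1 and 13.5 CPM in Flcn KO and 15.1, 14.5, 15.6 and 13.6 CPM in WT, with a log2 fold change of -0.15 (SE 0.22).

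Ndufs6 encodes an accessory subunit of the NADH-oxidising module that binds zinc. A peak 13797 bp from it, at chr13:73305750-73306079, had 3.08, 2.63, 0.489 and 0.749 CPM in Flcn KO and 2.86, 6.14, 3.01 and 5.81 CPM in WT. The groups overlapped, and the log2 fold change was -1.27 (SE 0.50; edgeR adjusted p = 0.215). This peak also entered the test through WT, with 4 of 4 libraries at the level of the count filter, against 2 of 4 in Flcn KO. The peak at its start, over the promoter printed above and given to Mrpl36, averaged 65.9 ± 3.69 CPM in Flcn KO and 73.1 ± 3.66 CPM in WT (SD, n = 4 each), and was stable at -0.15. The largest positive value of complex I was at a peak 3023 bp from Ndufc1, a small membrane-arm subunit: 2.69, 3.68, 4.89 and 6.74 CPM in Flcn KO and 3.27, 1.76, 4.01 and 3.87 CPM in WT. It did not pass the test (0.44, SE 0.42; adjusted p = 0.734).

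Complex II, succinate dehydrogenase, passes electrons from succinate to ubiquinone and is also an enzyme of the tricarboxylic acid cycle. Its iron-sulfur subunit gene Sdhb held the single peak of the 61 tested that was called, against 2.37% of all 47859 tested peaks (1.35% higher and 1.02% lower in Flcn KO). At an unadjusted p under 0.05 there were 5 of 61, against 12.9%, with 2 higher in Flcn KO (6.86% of all peaks) and 3 lower (6.0%). The called peak lies inside Sdhb at chr4:140978243-140978686, 16972 bp from the start and 512 bp before the far end of the gene. It had 18, 32, 28 and 18 counts in Flcn KO and 10, 7, 8 and 10 counts in WT. Scaled to depth these were 3.46, 8.41, 6.85 and 6.74 CPM in Flcn KO and 2.04, 1.54, 2.01 and 2.42 CPM in WT. Every Flcn KO library was above every WT library, with Flcn KO replicate 1 the lowest of its group. Accessibility rose at this peak, at a log2 fold change of 1.64 (SE 0.41; 95% interval 0.83 to 2.49; edgeR adjusted p = 0.0179). The peak entered the test through the Flcn KO libraries alone: 4 of 4 reached the level the count filter asks of 4 libraries (2.43 CPM of the uncorrected total), against 0 of 4 in WT.

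Few reads lie behind it, and it is a low peak per length, at 9.42 CPM per kb against 92.8 CPM per kb at the Sdhb promoter. It was not tested with a minimum count of 30. The adjusted p was above 0.05 with limma-voom (0.0918), without Flcn KO replicate 2 (0.0995), without Flcn KO replicate 3 (0.0598) and without WT replicate 2 (0.0761), while the log2 fold change stayed between 1.48 and 1.87. None of the other Sdhb peaks passed the test. The promoter had 44.4, 46.0, 38.4 and 42.3 CPM in Flcn KO and 51.5, 47.4, 39.1 and 45.0 CPM in WT, and was stable at -0.10 (SE 0.13; -0.36 to 0.17). The peaks 3091 bp before and 3429 bp after the start had log2 fold changes of 0.03 and -0.04, with intervals of -0.60 to 0.67 and -0.70 to 0.61.

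**Figure D3:**
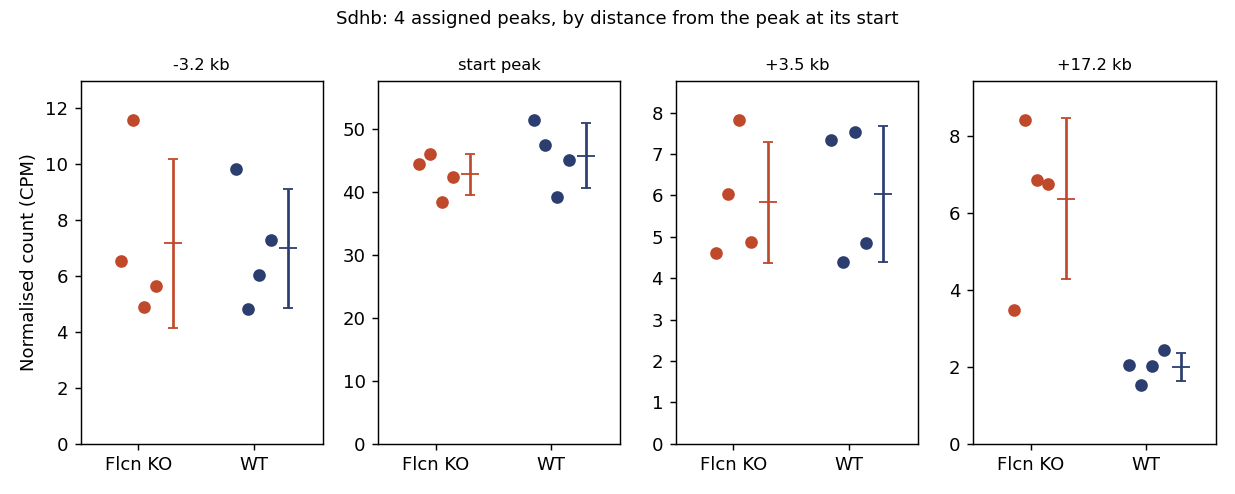
Normalised count (CPM) of the 4 peaks assigned to Sdhb in each library, Flcn KO left and WT right in each panel, with bars at the mean and SD and a separate axis from 0 in each panel. The groups are apart only in the panel farthest into the gene (3.46 to 8.41 CPM in Flcn KO, 1.54 to 2.42 CPM in WT).

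Sdhc, one of the membrane anchors, had the other assigned promoter peak of the complex, at 39.6, 47.0, 46.5 and 42.7 CPM in Flcn KO and 42.5, 34.2, 36.1 and 45.5 CPM in WT. The groups overlapped and it was stable at 0.15 (SE 0.14; -0.13 to 0.43). Sdha, the flavoprotein that oxidises succinate, had 1 assigned peak, 8755 bp from its start and inside the gene, at 40.4, 34.7, 31.8 and 42.7 CPM in Flcn KO and 38.0, 37.7, 37.1 and 36.8 CPM in WT. Its change was -0.01 (SE 0.14; -0.29 to 0.28), with the Flcn KO libraries on both sides of WT. The higher of 2 peaks of Sdhd, the other anchor, lies 4947 bp from the gene, at 3.85, 3.15, 2.93 and 2.25 CPM in Flcn KO and 3.27, 5.27, 6.02 and 2.42 CPM in WT. Its change was -0.44 (SE 0.41; adjusted p = 0.731). The start peaks of Sdha and Sdhd, given to Ccdc127 and Timm8b, were stable at -0.01 and -0.03.

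Complex III moves electrons from ubiquinol to cytochrome c. Its 6 tested promoter peaks included 0 called and 5 stable ones, and 5 of the 6 had log2 fold changes below 0, as had 6951 of 12001 promoter peaks of all genes. Summed over the 6, promoter accessibility was 231, 250, 243 and 233 CPM in Flcn KO and 258, 249, 251 and 275 CPM in WT (mean 239 ± 8.56 and 258 ± 11.6, SD, n = 4 each). The groups overlapped only through Flcn KO replicate 2. Uqcrb, a small subunit that contacts the ubiquinone site, contributed the clearest part, with 45.0, 41.5, 39.6 and 45.0 CPM in Flcn KO and 48.8, 51.3, 52.2 and 52.8 CPM in WT. The libraries did not overlap there, which was so for 3 of the 61 tested peaks, the Sdhb peak and a Cycs peak being the others, and for 7.59% of all tested peaks. The Uqcrb change of -0.26 (SE 0.12; -0.51 to -0.01) did not pass the correction (edgeR adjusted p = 0.357), and its interval stayed within 1.5-fold.

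Uqcrc2, a core subunit, had the highest complex III promoter in CPM: 56.7, 54.7, 61.6 and 56.2 in Flcn KO and 58.8, 68.0, 64.7 and 65.8 in WT. It was stable at -0.17 (SE 0.11; -0.39 to 0.06), and only Flcn KO replicate 3 lay above the lowest WT library. Uqcrfs1, the Rieske iron-sulfur protein, whose promoter is printed above, had 57.1, 55.5, 65.5 and 57.3 CPM in Flcn KO and 60.8, 48.7, 59.2 and 57.1 CPM in WT, and was stable at 0.06 (SE 0.12; -0.18 to 0.30). Uqcrc1, the other core subunit, and Uqcrq, a small subunit, were also stable, at -0.12 and -0.05. Cyc1, which carries the heme that hands electrons to cytochrome c, had the lowest promoter peak of the complex and was not stable. Its 7.31, 7.10, 3.91 and 3.75 CPM in Flcn KO overlapped the 8.58, 5.70, 6.02 and 11.1 CPM in WT, at -0.48 (SE 0.32; adjusted p = 0.578). A peak 24902 bp from Uqcrfs1 had 3.46, 4.73, 11.7 and 11.2 CPM in Flcn KO and 6.53, 3.95, 5.02 and 5.33 CPM in WT. Flcn KO replicates 3 and 4 stood above all others there, and the change of 0.54 (SE 0.35) did not pass the test (adjusted p = 0.569).

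Complex IV, cytochrome c oxidase, reduces oxygen. Of its 7 tested promoter peaks 0 were called and 4 were stable, and log2 fold changes ran between -0.26 (Cox6c) and 0.44 (Cox7b). Cox7a2, a subunit of the widely expressed form of the enzyme, had the highest, with 75.4, 87.3, 69.5 and 95.2 CPM in Flcn KO and 83.3, 72.0, 80.5 and 83.8 CPM in WT. Its change was 0.03 (SE 0.11; -0.20 to 0.25), and the Flcn KO libraries surrounded the WT ones. Cox5b, which binds zinc, had 39.6, 48.9, 32.8 and 42.0 CPM in Flcn KO and 42.1, 35.5, 41.1 and 39.2 CPM in WT, at 0.04 (SE 0.14; -0.24 to 0.33). Cox8a and Cox6a1 were the other stable promoters, at 0.09 and 0.04.

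Cox7b, Cox5a and Cox6c were not stable. Cox7b had 14.2, 19.97, 16.6 and 12.7 CPM in Flcn KO and 9.80, 8.78, 14.5 and 14.0 CPM in WT, with 2 Flcn KO libraries above all WT ones. Its change of 0.44 (SE 0.23; -0.02 to 0.91) did not pass the test (edgeR adjusted p = 0.423). Cox6c, the lowest, had 8.84, 7.36, 8.32 and 6.74 CPM in Flcn KO and 9.39, 9.65, 8.53 and 10.2 CPM in WT, overlapping only through Flcn KO replicate 1, at -0.26 (SE 0.26; adjusted p = 0.759). Cox4i1, a regulatory subunit, held 4 tested peaks, all at least 4242 bp outside the gene. The peak at 4242 bp had the lowest value of the complex, -0.51 (SE 0.41; adjusted p = 0.675), with 2.69, 2.10, 2.93 and 5.995 CPM in Flcn KO and 5.31, 6.58, 2.51 and 4.36 CPM in WT, which overlapped.

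Cytochrome c, encoded by Cycs, carries electrons between complexes III and IV and triggers apoptosis when released into the cytosol. Its promoter, printed above, had 59.2, 81.5, 81.7 and 87.3 CPM in Flcn KO and 63.7, 72.4, 74.0 and 73.1 CPM in WT. The first library of each group was the lowest, and the promoter was stable at 0.12 (SE 0.12; -0.11 to 0.36). A further 5 tested peaks lay 1418 to 25585 bp from the gene. The nearest, at chr6:50560766-50561145, had 26.9, 26.3, 25.9 and 25.5 CPM in Flcn KO and 18.8, 18.9, 16.6 and 22.3 CPM in WT. All Flcn KO libraries were above all WT ones, with little spread among them, but the change of 0.45 (SE 0.17; 0.10 to 0.80) did not pass the correction (edgeR adjusted p = 0.198). The largest negative value was at 16540 bp, where 8.08, 14.2, 12.7 and 11.99 CPM in Flcn KO overlapped 12.3, 10.5, 14.5 and 23.7 CPM in WT (-0.38, SE 0.25; adjusted p = 0.568).

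**Figure D4:**
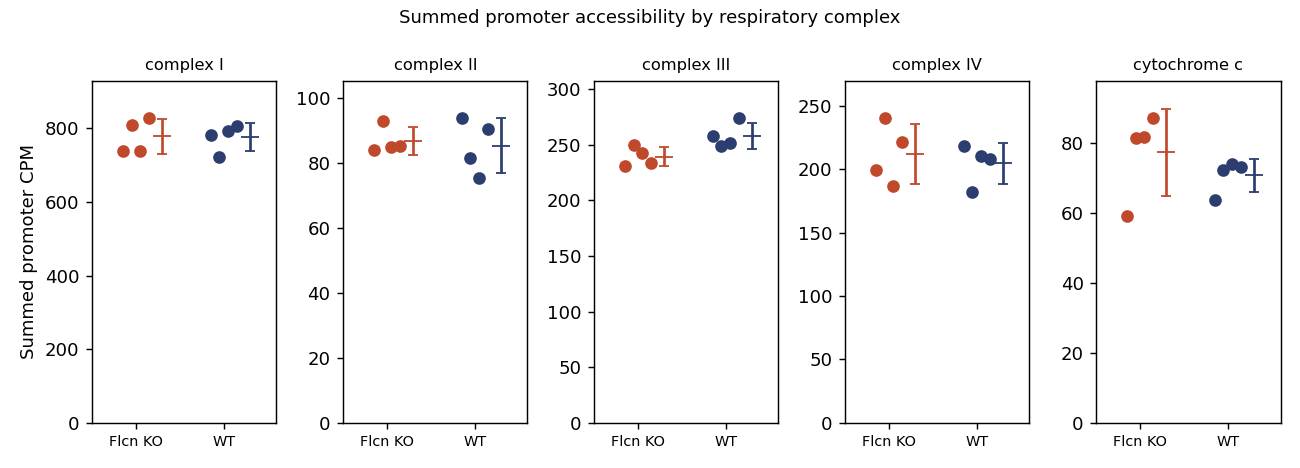
Summed CPM of the promoter peaks of each complex in each library, Flcn KO left and WT right in each panel, with bars at the mean and SD and a separate axis from 0. Complex I averages 778 CPM in Flcn KO and 776 CPM in WT, and complex III, with the groups least mixed, 239 CPM in Flcn KO and 258 CPM in WT.

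By complex, summed promoter accessibility averaged 778 ± 47.0 CPM in Flcn KO and 776 ± 37.0 CPM in WT for complex I (SD, n = 4 each, as in the next sentences). For complex II it was 86.8 ± 4.22 CPM in Flcn KO and 85.3 ± 8.49 CPM in WT. Complex IV had 212 ± 23.9 CPM in Flcn KO and 205 ± 15.95 CPM in WT. Each of these differences was smaller than the spread between libraries. With all counts of a gene summed, 0 of 35 genes were called, against 1.9% of 13494 genes, and log2 fold changes ran between -0.48 and 0.47. At an unadjusted p under 0.05 there were 4 of 35, Cox7b and Cycs with higher and Ndufa9 and Uqcrb with lower values in Flcn KO, against 12.7% of all genes.

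The 29 tested peaks of these genes outside promoters had a median log2 fold change of -0.11, beside 0.03 over all 35858 such peaks. Of the 29, 1 was called, against 2.98% of the 35858. Over all 61 tested peaks the median was -0.03, beside 0.00 over all tested peaks. Per length, the promoter peaks ran between 11.1 CPM per kb (Ndufa10) and 392 (Ndufa5), with a median of 67.2 against 45.2 for all tested promoter peaks, while the 29 peaks elsewhere had a median of 16.8 against 19.0.

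**Figure D5:**
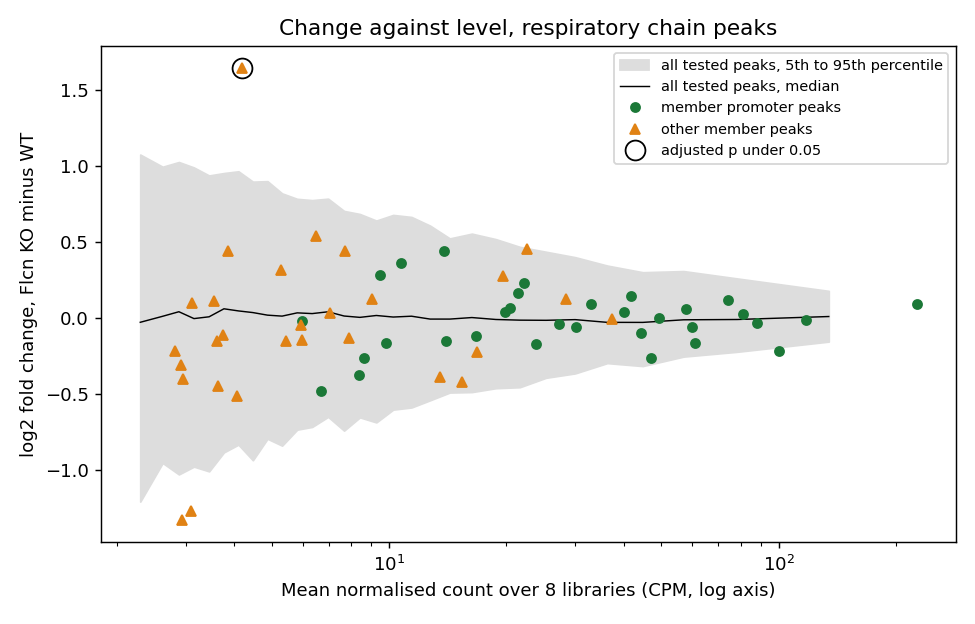
Log2 fold change (Flcn KO minus WT) against the mean normalised count over the 8 libraries (CPM, log axis) for the 61 tested respiratory chain peaks, with promoter peaks as green circles, other peaks as orange triangles and the 5th to 95th percentile of all tested peaks in grey. The circled point is the Sdhb peak with an adjusted p under 0.05 (log2 fold change 1.64), which lies among the low peaks, where the grey band is widest.

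Subunit genes outside the 41 held no called peak. The ATP synthase subunits, which make ATP from the proton gradient, had 19 tested peaks over 14 of 17 genes, of which 0 were called and 0 reached an unadjusted p under 0.05, against 2.37% and 12.9% of all tested peaks. Their median log2 fold change was 0.04, and 10 of 12 tested promoters were stable, against 58.6% of all promoter peaks. These 12 promoters had a median of 35.4 CPM, against 24.2 CPM over all tested promoter peaks. Stability rises with level, so the 2 shares are not at matched level. Complex I subunits outside the 41 genes had 22 tested peaks, 0 called and 2 with lower values at an unadjusted p under 0.05, and the remaining subunits of complexes III and IV had 6 tested peaks, 0 called.

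Factors that assemble the complexes had 85 tested peaks over 37 of 45 genes, 0 called higher and 2 called lower, both outside promoters, where 1.35% of all tested peaks were called higher and 1.02% lower. The 2 of 85 are near the 2.37% called over all tested peaks. Ndufaf6, an assembly factor of complex I, had a peak 8439 bp away, at chr4:11084676-11085105, with 10.8, 12.1, 11.2 and 9.74 CPM in Flcn KO and 27.0, 36.0, 25.1 and 27.1 CPM in WT. Every Flcn KO library was below every WT library, and the peak fell by 1.39 on the log2 scale (SE 0.19; edgeR adjusted p = 1.52e-05). Cox10 is an enzyme in making the heme of complex IV, and a peak inside the gene, at chr11:63975184-63975776, had 7.69, 9.46, 8.32 and 3.00 CPM in Flcn KO and 20.4, 18.4, 13.5 and 12.1 CPM in WT. The groups did not overlap there either, and the peak fell by 1.14 (SE 0.27; adjusted p = 0.0107). The 44 tested promoter peaks of the assembly factors held 0 calls.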

How the data were processed

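Accessibility was measured by ATAC-seq in 8 libraries, 4 Flcn KO and 4 WT. The authors deposited whole-number, unscaled read counts, 1 per library and peak, over 57199 shared peaks. Per the submitters' processing notes, the build was mm10 and the tools included MACS2 2.1.1, BWA 0.7.16, bedtools 2.25.0, SAMtools 1.9, Trimmomatic 0.36 and Picard 2.9.4. How reads were counted and peaks merged, and whether reads were shifted for the transposase, is not given in the sources used here. Peak starts were taken as counting from 0.

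Counts were tested in edgeR 4.0.16 (R 4.3.3) by the quasi-likelihood test with genotype alone, a minimum count of 10, TMM scaling and Benjamini-Hochberg adjustment over the 47859 tested peaks. CPM are counts scaled to a library's total after TMM correction. The SE comes from the F statistic. On simulated data the script called 30 of 50 peaks raised 2-fold and 20 of 50 peaks lowered 2-fold. At 3-fold it called 49 of 50 raised and 43 of 50 lowered peaks. A 2-fold change can therefore go uncalled. The simulation gave all peaks 1 common variability, and the changed peaks were drawn at random from all tested peaks, whose median was 8.82 CPM. The 32 tested promoters had a median of 28.8 CPM, so the simulated shares are not those of these promoters. DESeq2 1.42.0, limma-voom (limma 3.58.1), other filters, scalings and windows, and leaving out each library were alternatives. Gene starts came from RefSeq promoters for 31 of the 41 genes, and for the other 10 a peak within 1000 bp of either gene end counted as promoter.

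The genes, gene lists and alternatives were chosen with earlier results of these data known. Values per library are given for peaks with an unadjusted p under 0.05, for the highest and lowest promoter and the largest changes of each complex, for up to 2 stable promoters with the narrowest interval in each, and for the strongest peaks of the Sdh genes and Cycs. The count over all start peaks was added after the data were seen, and the NRF1 and extended E-box letters were shortened by 1 or more bases after a first search. Other genes named were picked after their values were seen. P-values rest on the spread between libraries, labelled as biological replicates. In edgeR the spread of each peak was drawn toward that of other tested peaks, with a median of 30.68 prior degrees of freedom. Its p-values thus do not rest on the spread at the named peak alone. Another list of cell type markers is not reported here.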

Additional observations from a re-analysis of the deposited data

Results flagged for a closer look

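In 3 of 68 groups of 4 libraries checked, 1 library stood far from the others, and chance flags about 1 in 20 groups. WT replicate 1 had 63.71 CPM at the Cycs promoter, against 72.41 to 73.99 CPM in the other WT libraries, and the sum for cytochrome c is the same value, 63.71 CPM. Flcn KO replicate 2 had 93.04 CPM summed over the complex II promoters, against 84.03 to 85.06 CPM in the other Flcn KO libraries. None of the promoter peaks in these sums passed the test between genotypes.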

How the results depend on the processing

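Scaling by DESeq2 size factors or by library size alone changed no call among the 41 genes, and 0 promoters and 0 genes with summed counts were called under any alternative. Called peaks of the 41 genes numbered 2 with no count filter (Sdhb and the Ndufa9 peak at 30040 bp), 0 with a minimum count of 30, where the Sdhb peak was not tested, 0 with limma-voom, and 0 to 2 with each library left out in turn. Over all peaks, calls numbered 665 without WT replicate 2 and 1807 without Flcn KO replicate 1, which bound the range, against 1133 with all libraries. Without 1 library, 18 to 21 promoters were stable, and the medians of all 61 peaks and of promoters both ran from -0.06 to 0.03. With a band of 0.32 either way on the log2 scale 7 promoters were stable and with 2-fold 31, and with DESeq2 the intervals were not computed. Of 351 pairs of a named peak and an alternative, 346 kept direction and side of the threshold or were uncalled in both, 4 lost the call (Sdhb) and 1 gained it (the Ndufa9 peak inside the gene, without Flcn KO replicate 1). Of the 24 named peaks in these pairs, 6 changed sign under an alternative, all of them uncalled in every fit. The Ndufa9 peak at 30040 bp, not among the 24, was also called without WT replicate 4. The causes were not tested.

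Between the groups, libraries with the same replicate number gave r of -0.0603 to 0.0873. Peak levels were alike in all 8 libraries, with the Ndufa5 promoter far above that of Ndufb10 in each. These r near 0 are therefore not correlations of the levels themselves. The labels do not say whether equal numbers pair the libraries, and these weak correlations cannot settle it. With a replicate block, 1375 peaks were called, against 1133 without it. Of these, 1 was of the 41 genes, the Sdhb peak (1.603, adjusted p = 0.0243). The highest r between the groups was that of Flcn KO replicate 1 with WT replicate 2 (0.183). Low peaks limit the results: 8 of the 69 peaks were under the filter, and under 20 CPM few intervals fit within 1.5-fold.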
